A study of Homo sapiens with 6 samples.

Results

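The p53 network described here comprised 33 genes: MDM2, MDM4 and other regulators of p53, together with genes that p53 is known to switch on. They were the rows of the deposited table whose gene name equals 1 of 33 listed symbols, out of 27887 rows, and each symbol had 1 row. The libraries came from KYSE450, a human cell line of squamous carcinoma of the esophagus. The 3 shHMGB2 libraries came from cells infected with a virus carrying a short hairpin RNA against HMGB2, and the 3 mock libraries from cells labelled wild type that received a mock virus infection. The sources used here do not say if the mock virus had a hairpin of its own or how many hairpin sequences were used. They also do not say if libraries of 1 group stem from different cultures, and p-values then cover a spread that may be technical. The series' design text states cholesterol metabolism as the question, and the p53 genes are read here as part of the wider response to the knockdown.

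The p53 protein is a transcription factor that binds a pair of 10-base half-sites in or near its target genes. Its targets halt the cell cycle, promote apoptosis, repair DNA and limit p53 itself, the last through MDM2, a ubiquitin ligase that marks p53 for destruction. Many of these genes also answer to other inputs, among them growth factor signalling, AP-1 and, in squamous epithelium, the p53 relative p63.

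Promoter sequence is given first for the members whose start region holds a close match to the p53 consensus, because of these MDM2 and AEN fell while DDB2 had higher values that did not pass the test. Windows of 300 bases from RefSeq on GRCh38.p14, which reach from 250 bases before a start site to 50 after it, were found for 30 of the 33 members. Allowing 2 mismatches in the 20 letters of the p53 consensus with no spacer, a limit chosen after the MDM2 sequence was seen, 3 of 30 members (10%) held a match, against 0.82% of the 27305 genes with a window. The consensus reads the same on both strands. The AP-1 letters TGANTCA, also the same on both strands, lay in the windows of 4 of 30 members (13.3%), which were MDM2, BBC3, SFN and SERPINB5, against 9.37% of all genes. The stretches below are printed 5′ to 3′ on the plus strand, with the p53 match in capitals and, for MDM2, the AP-1 letters in capitals before it.
MDM2, chr12:68808889-68808952: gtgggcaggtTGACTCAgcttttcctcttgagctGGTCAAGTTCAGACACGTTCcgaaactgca
AEN, chr15:88621296-88621335: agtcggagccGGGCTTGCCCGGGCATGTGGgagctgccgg
DDB2, chr11:47214959-47214998: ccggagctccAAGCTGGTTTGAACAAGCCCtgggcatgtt
The MDM2 stretch belongs to its inner, p53-responsive promoter, and its match begins 101 bases before the start site with 18 of 20 letters matching. The AEN match begins 34 bases before a start site with 18 letters matching, and the DDB2 match begins 5 bases before one with 19 letters matching. A match describes letters only. Known sites of other members, such as those upstream of CDKN1A, lie outside these windows.

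HMGB2, the target of the hairpin, was read first as a check of the labels. It had 22.1, 24.45 and 27.75 FPKM (fragments scaled by transcript length and library size) in shHMGB2 libraries, against 115.76, 111.42 and 108.61 FPKM in mock libraries, so that 22.1% of the mock mean remained. Libraries had summed FPKM of 740684 to 829437, and a relative depth estimated from the authors' group values that spanned 1.93-fold, with shHMGB2 replicate 3 the shallowest. Of 7 squamous epithelial markers, 7 were above 1 FPKM, and their summed level was 5442 to 6112 FPKM in shHMGB2 and 6167 to 6272 FPKM in mock libraries. Leukocyte markers summed to at most 0.24 FPKM and endothelial markers to at most 0.69 FPKM in any library, and fibroblast markers to 3.96 to 4.38 FPKM in shHMGB2 and 2.91 to 3.69 FPKM in mock libraries. Of 6 fibroblast markers 1, LUM, averaged at least 1 FPKM, and the part of other cells in the results was not tested. KRT14 and KRT6A fell and SOX2 rose among the squamous markers (log2 fold changes -0.55, -0.54 and 0.42), and their part in the results was not tested either.

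Part of the network was lower after HMGB2 knockdown, most of it among genes that halt the cell cycle. Of the 32 members with a mean of at least 1 FPKM, 9 fell and 2 rose at an adjusted p under 0.05, and 21 passed in neither direction, in limma, a linear model fitted to log2(FPKM + 1) over 13409 genes. That is 34.4% of the tested members called, where 6.75% of all genes tested were called. By direction, 28.1% of members fell against a background of 3.45%, and 6.25% rose against 3.3%. The tested members' median log2 fold change was -0.03, and that of all genes tested was 0.04; 16 members lay above 0 and 16 below. The groups did not overlap for 23 of the 32 members, or 71.9%, where 35.6% of all genes tested did not overlap. Lower without overlap were 14 of the 32 members, where 1882 of the 13409 genes tested were (14%). Higher without overlap were 9 of the 32 members, where 2896 of the 13409 were (21.6%). The calls thinned out when a library was left out: 3 members fell without mock replicate 2 or shHMGB2 replicate 2, 4 without shHMGB2 replicate 1 or 3, and 1 rose in each of those 4 fits. Calls over all genes tested thinned out as well. In those 4 fits 193 to 209 genes fell and 97 to 123 rose, against 463 and 442 in the main fit. PLK3, CDKN1A, GADD45A and CCNG1 passed with every single library left out, and each of the 11 called members kept its direction under every alternative that tested it, 15 for 9 of them and 14 for PLK3 and GADD45B, which lie under the stricter filter of 5 FPKM.

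**Figure D1:**
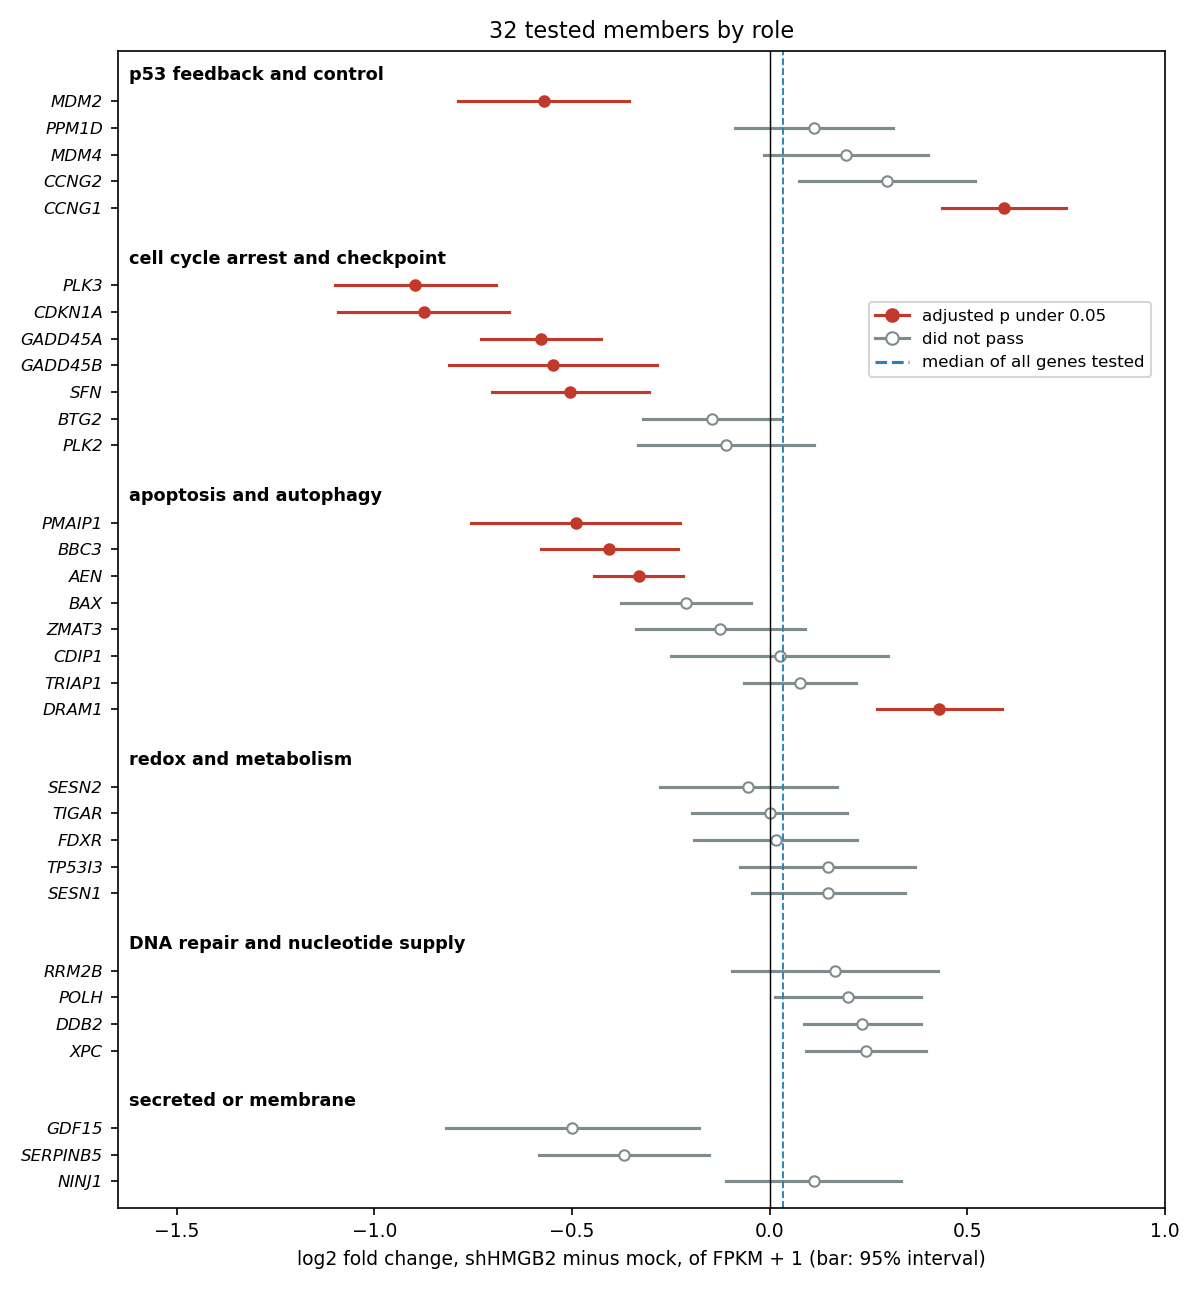
The log2 fold change of FPKM + 1 (shHMGB2 minus mock) is plotted for the 32 tested members, grouped by role, with bars for the 95% interval, filled red points for an adjusted p under 0.05 in limma and a dashed line at the median of all genes tested. Of 7 cell cycle arrest genes, 5 are red and left of 0, while the 5 redox and 4 DNA repair genes are all open points.

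Genes of cell cycle arrest and checkpoint control fell most. Of 7 members 5 fell, 0 rose, and all 7 had a negative log2 fold change, from -0.90 to -0.11 with a median of -0.55, though that of PLK2 was 0.07 with library weights. CDKN1A encodes p21, the cyclin-dependent kinase inhibitor that carries out much of the arrest set off by p53. It lies on chromosome 6 at 36676463 to 36687332 (GRCh38.p14). CDKN1A had 13.5, 13.57 and 15.12 FPKM in shHMGB2 libraries, against 23.45, 29.49 and 27.21 FPKM in mock libraries. All shHMGB2 libraries were well below the lowest mock library. In bulk RNA, fewer cells with a transcript and less of it per cell cannot be told apart. The shHMGB2 mean was 52.6% of the mock mean, which put its log2 fold change at -0.88 (SE 0.093, adjusted p = 0.00303 in limma).

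PLK3, a polo-like kinase of the stress and DNA damage response, had the largest fall among the members and the lowest level of those that fell. It had 2.02, 2.02 and 1.71 FPKM in shHMGB2 libraries, against 4.15, 4.38 and 4.76 FPKM in mock libraries. The groups stood apart, and shHMGB2 kept 43.3% of the mock mean. On the log2(FPKM + 1) scale, which understates changes at such low levels, the difference was -0.90 (SE 0.087, adjusted p = 0.00202 in limma). Its relative PLK2, also a p53 target, did not pass: 19.41, 21.89 and 20.72 FPKM in shHMGB2 libraries overlapped with 23.98, 19.38 and 24.1 FPKM in mock libraries, and the 95% interval of its log2 fold change was -0.33 to 0.11 (limma adjusted p = 0.478).

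GADD45A and GADD45B encode stress sensors that bind kinases and PCNA. GADD45A had 72.31, 78.66 and 76.66 FPKM in shHMGB2 libraries, against 109.26, 122.02 and 110.15 FPKM in mock libraries, with -0.58 as its log2 fold change (SE 0.065, adjusted p = 0.00391 in limma). GADD45B, at a far lower level, had 3.38, 3.45 and 3.99 FPKM in shHMGB2 libraries, against 6.4, 6.11 and 4.77 FPKM in mock libraries, with -0.55 as its log2 fold change (SE 0.11, adjusted p = 0.0337 in limma). Neither gene's groups overlapped, but mock replicate 3 of GADD45B came close to the shHMGB2 libraries. GADD45B no longer passed without any library except mock replicate 3 (limma adjusted p from 0.0683 to 0.118).

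SFN encodes 14-3-3 sigma, an epithelial protein that holds cells in G2 and was the most abundant member, above 98.4% of all genes tested by mean FPKM (a rank that includes the gene itself). Its level was 407.93, 383.83 and 387.94 FPKM in shHMGB2 libraries, against 628.02, 544.11 and 508.11 FPKM in mock libraries. The mock libraries were spread widely, yet each was above every shHMGB2 library. On the log2 scale SFN differed by -0.50 (SE 0.085, adjusted p = 0.0171 in limma), and the call was lost when mock replicate 2 (adjusted p = 0.0641) or shHMGB2 replicate 1, 2 or 3 (adjusted p = 0.0586, 0.0733 and 0.0715, limma) was left out. BTG2, an antiproliferative cofactor, had 4.78, 4.78 and 4.24 FPKM in shHMGB2 libraries, against 5.39, 5.08 and 5.1 FPKM in mock libraries, without overlap and without passing (log2 fold change -0.15, 95% interval -0.32 to 0.03, limma adjusted p = 0.244). Summed over the 7 genes, FPKM was 514 ± 8.18 in shHMGB2 and 738 ± 58.6 in mock libraries (SD, n = 3 each), and most of it was SFN.

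**Figure D2:**
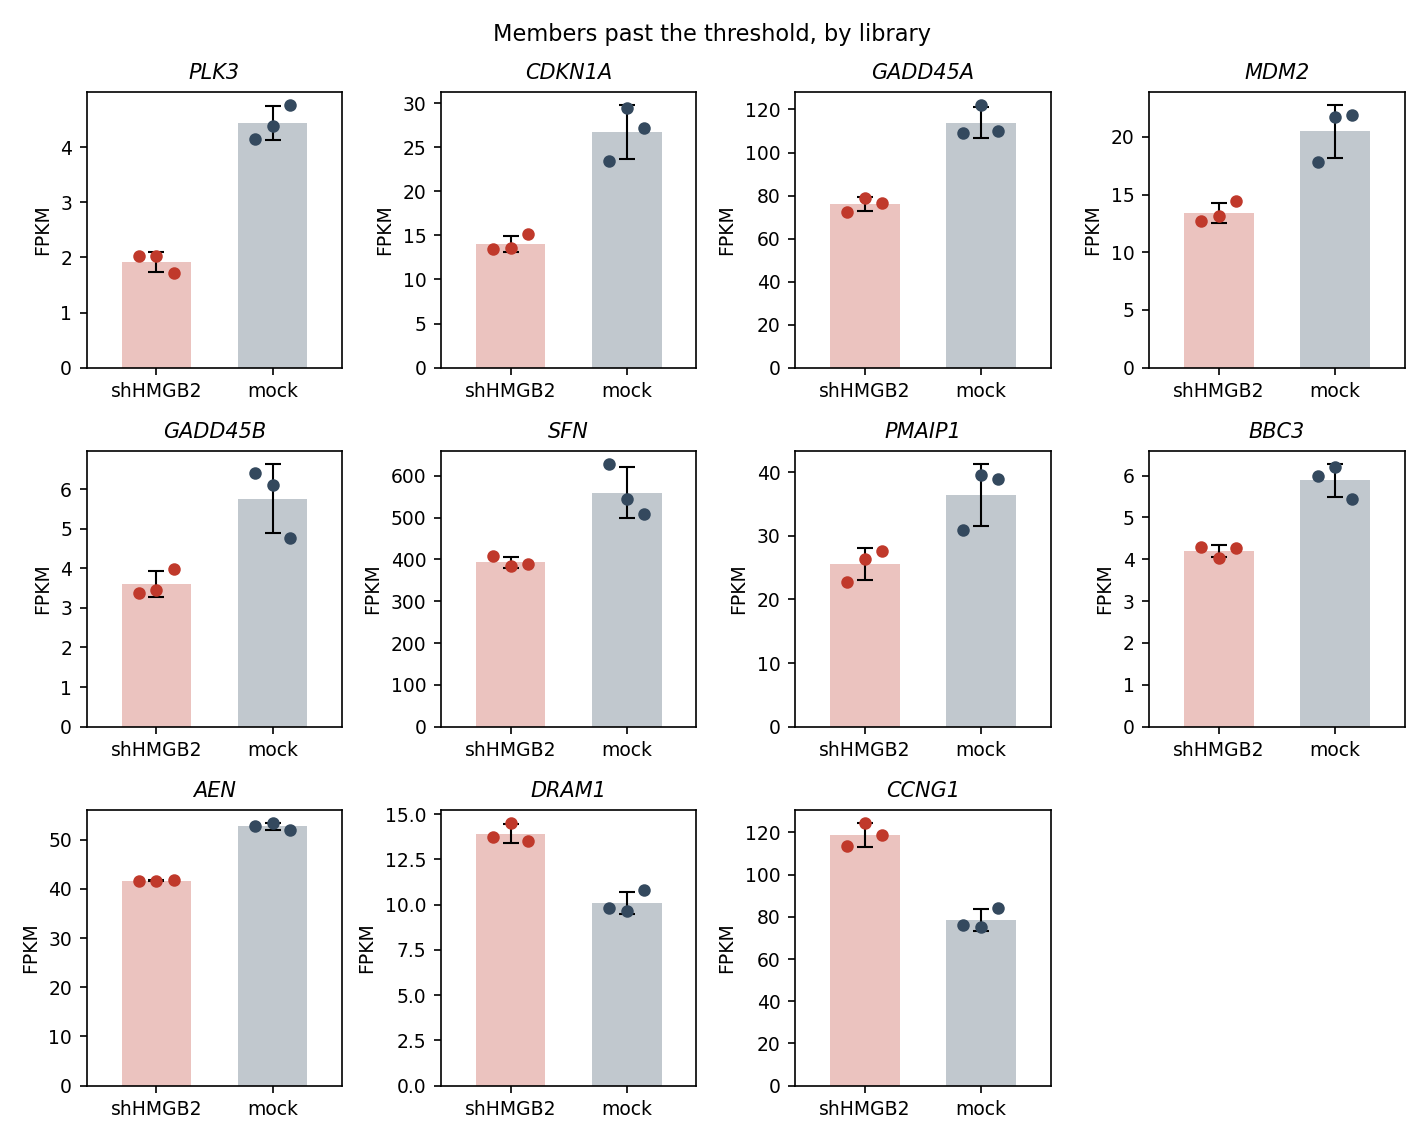
FPKM by library for the 11 members past the threshold, ordered by fold change, with shHMGB2 left of mock in each panel, bars at the mean, error bars of 1 SD and 1 point per library (n = 3 each). The 9 members that fell have every shHMGB2 point below every mock point, and DRAM1 and CCNG1 have the reverse.

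The regulators of p53 split. MDM2 fell and CCNG1 rose, while 3 of the 5 did not pass. MDM2 (chromosome 12, 68808172 to 68850686) had 12.71, 13.1 and 14.4 FPKM in shHMGB2 libraries, against 17.83, 21.71 and 21.85 FPKM in mock libraries. Mock replicate 1 was the lowest of its group and still above all shHMGB2 libraries. On the log2 scale MDM2 differed by -0.57 (SE 0.093, adjusted p = 0.0151 in limma), and MDM2 did not pass when mock replicate 2 (adjusted p = 0.0648) or shHMGB2 replicate 1 or 2 (adjusted p = 0.0676 and 0.0652, limma) was left out. The table gives 1 value per gene, so the inner promoter shown above and the outer promoter of MDM2 were not separated.

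MDM4, the partner of MDM2 that masks the activating domain of p53, pointed the other way without passing. It had 3.36, 3.57 and 3.36 FPKM in shHMGB2 libraries, against 2.53, 2.95 and 3.17 FPKM in mock libraries, with a log2 fold change of 0.19 and a 95% interval of -0.01 to 0.40 (limma adjusted p = 0.203). PPM1D, the phosphatase WIP1 that turns off p53 and its kinases, had 5.12 ± 0.226 FPKM in shHMGB2 and 4.67 ± 0.471 FPKM in mock libraries (SD, n = 3 each; limma adjusted p = 0.421).

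CCNG1, cyclin G1, a p53 target that recruits a phosphatase to MDM2, had the largest rise. Its level was 113.4, 124.38 and 118.54 FPKM in shHMGB2 libraries, against 75.99, 75.04 and 84.39 FPKM in mock libraries. The shHMGB2 mean was 1.51 times the mock mean, with 0.59 on the log2 scale (SE 0.067, adjusted p = 0.00391 in limma). CCNG1 and MDM2, both textbook p53 targets, stood on opposite sides of 0 with intervals of 0.44 to 0.75 and -0.79 to -0.35. The cause of either change was not tested. CCNG2, a relative of CCNG1 that is better known as a FOXO target, had 3.33, 3.55 and 4.02 FPKM in shHMGB2 libraries, against 2.5, 3.07 and 2.75 FPKM in mock libraries (log2 fold change 0.30, limma adjusted p = 0.102).

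Among genes of apoptosis and autophagy, 8 members were tested, of which 3 fell and 1 rose. The members that fell were PMAIP1 and BBC3, which encode NOXA and PUMA, both BH3-only proteins that disable survival members of the BCL2 family, and AEN, an exonuclease of apoptotic cells. PMAIP1 had 22.69, 26.33 and 27.65 FPKM in shHMGB2 libraries, against 30.86, 39.56 and 38.85 FPKM in mock libraries (log2 fold change -0.49, SE 0.11, limma adjusted p = 0.0466). BBC3 had 4.29, 4.03 and 4.26 FPKM in shHMGB2 libraries, against 5.99, 6.21 and 5.45 FPKM in mock libraries (log2 fold change -0.41, SE 0.074, limma adjusted p = 0.0229). Neither overlapped between groups, and for PMAIP1 the gap between mock replicate 1 and the highest shHMGB2 library was small.

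AEN had the tightest values of the called members, with 41.68, 41.5 and 41.87 FPKM in shHMGB2 libraries, against 52.68, 53.36 and 52.06 FPKM in mock libraries. Its change was the smallest of those called, at -0.33 on the log2 scale (SE 0.048, adjusted p = 0.0101 in limma), and left 79.1% of the mock mean. The calls in this group did not all hold with 1 library left out, in fits that called 290 to 873 of all genes tested, against 905. The log2 fold change of AEN stayed between -0.34 and -0.32 in those fits. PMAIP1 still passed without mock replicate 1 but not without any of the others (limma adjusted p from 0.0824 to 0.138), BBC3 did not pass without mock replicate 2 or any shHMGB2 library (0.0755 to 0.0996), and AEN did not pass without mock replicate 2 or shHMGB2 replicate 2 or 3 (0.0605, 0.0607 and 0.0529).

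DRAM1, a lysosomal membrane protein that promotes autophagy, rose. It had 13.76, 14.5 and 13.5 FPKM in shHMGB2 libraries, against 9.84, 9.62 and 10.8 FPKM in mock libraries (log2 fold change 0.43, SE 0.068, limma adjusted p = 0.0139). All shHMGB2 libraries were above all mock libraries, and leaving out mock replicate 2 or any 1 of the shHMGB2 libraries ended its call (adjusted p of 0.0517 to 0.0669 in limma). BAX, the pore-forming effector of the mitochondrial pathway, had 41.73, 42.36 and 43.49 FPKM in shHMGB2 libraries, against 54.09, 45.97 and 48.45 FPKM in mock libraries. Its groups did not overlap, and it did not pass (log2 fold change -0.21, 95% interval -0.38 to -0.05, limma adjusted p = 0.108).

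The remaining members of this group were ZMAT3, an RNA-binding zinc finger protein, TRIAP1, a survival factor, CDIP1, a proapoptotic membrane protein, and TP53INP1. ZMAT3 averaged 1.16 ± 0.0416 FPKM in shHMGB2 and 1.35 ± 0.132 FPKM in mock libraries (SD, n = 3 each; limma adjusted p = 0.404). TRIAP1 averaged 14.6 ± 0.242 FPKM in shHMGB2 and 13.8 ± 0.649 FPKM in mock libraries, and CDIP1 2.44 ± 0.454 FPKM in shHMGB2 and 2.37 ± 0.259 FPKM in mock libraries (SD, n = 3 each; limma adjusted p = 0.439 and 0.904). The groups of CDIP1 overlapped, and those of ZMAT3 and TRIAP1 did not. TP53INP1, a stress-induced autophagy and apoptosis protein, was the 1 member under 1 FPKM and was left out of the test. It had 0.63, 0.72 and 0.58 FPKM in shHMGB2 libraries, against 0.43, 0.55 and 0.46 FPKM in mock libraries. With no filter on low values its log2 fold change was 0.15 (limma adjusted p = 0.266).

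**Figure D3:**
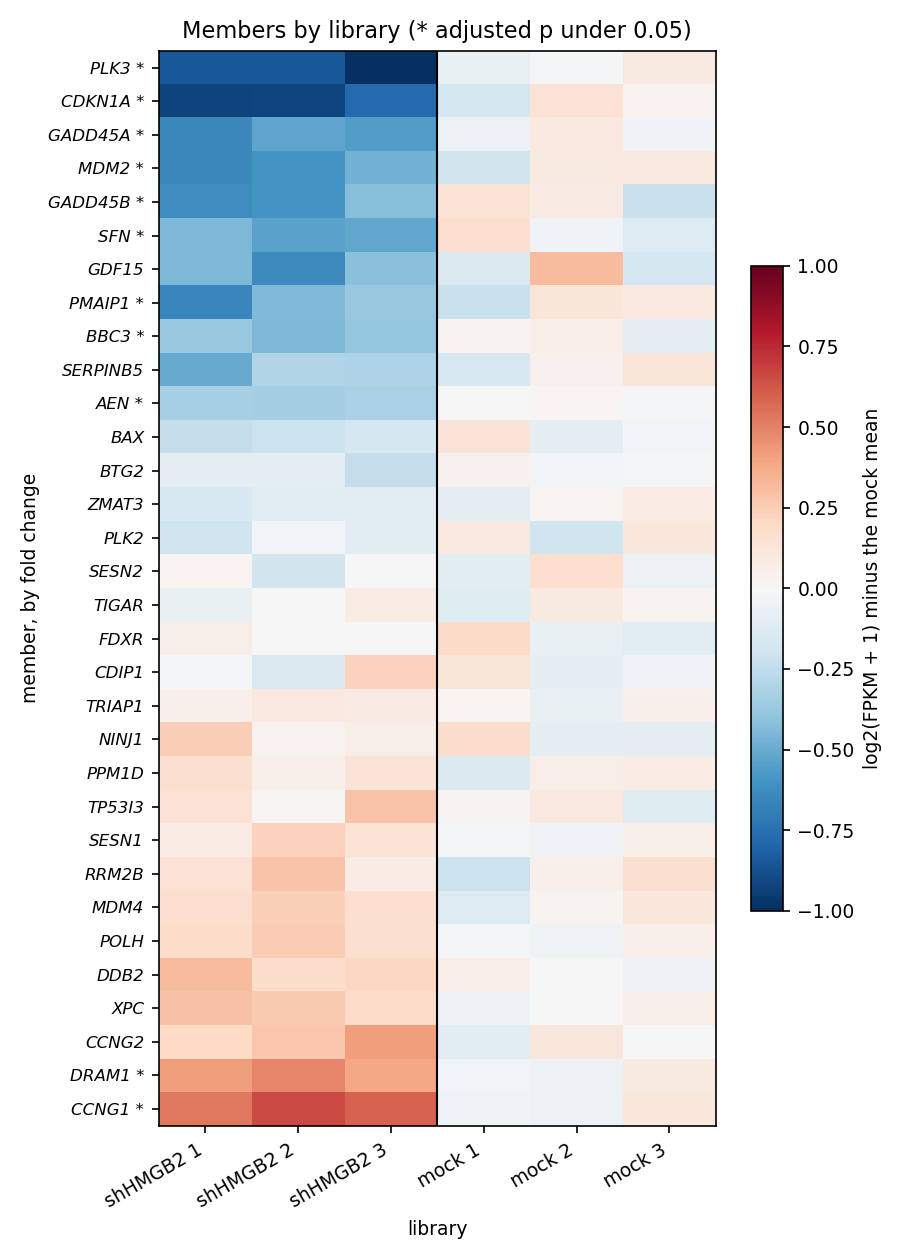
Each of the 32 tested members is a row, ordered by fold change, and each library a column, shHMGB2 left of the line and mock right of it; colour gives log2(FPKM + 1) minus the mock mean, blue for lower and red for higher. The shHMGB2 columns are blue in all 3 libraries for the rows from PLK3 to BAX, pale in the middle, and red for DRAM1 and CCNG1, while single mock libraries stand out in a few rows such as GDF15.

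DNA repair genes had higher means after knockdown but did not pass. Of 4 members 0 passed in limma and in the authors' deposited table, 3 had an unadjusted p under 0.05 in limma, and all 4 log2 fold changes were positive, from 0.17 to 0.24. Among the 13409 genes, 27.9% were under that unadjusted p and 57.0% were above 0. With library weights, XPC, DDB2 and POLH passed as higher (limma adjusted p = 0.00842, 0.00856 and 0.0221). That setting called 2436 of the 13409 genes tested as higher, where the main fit called 442. XPC, which recognises damaged DNA, had 12.65, 12.35 and 11.62 FPKM in shHMGB2 libraries, against 9.72, 10.1 and 10.62 FPKM in mock libraries (limma adjusted p = 0.0675). DDB2, the partner that finds ultraviolet lesions and whose start region holds the p53 match printed above, had 44.77, 40.58 and 41.35 FPKM in shHMGB2 libraries, against 37.46, 35.54 and 34.23 FPKM in mock libraries (limma adjusted p = 0.0692). Neither gene's groups overlapped. The log2 fold change of DDB2 was 0.23 with a 95% interval of 0.09 to 0.38. MDM2 and AEN, the other 2 members with a p53 match in a promoter window, fell, and the part of the matches was not tested.

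POLH, a translesion polymerase, had 2.63 ± 0.119 FPKM in shHMGB2 and 2.16 ± 0.101 FPKM in mock libraries (SD, n = 3 each; log2 fold change 0.20, limma adjusted p = 0.156). RRM2B, the p53-induced subunit of ribonucleotide reductase, had 6.58 ± 0.566 FPKM in shHMGB2 and 5.78 ± 0.884 FPKM in mock libraries (SD, n = 3 each; limma adjusted p = 0.363). The groups of POLH did not overlap and those of RRM2B did.

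Redox and metabolic targets gave the smallest differences. Of 5 members 0 passed in limma, 0 had an unadjusted p under 0.05, and 0 passed in the authors' deposited table. TIGAR, a phosphatase that lowers glycolytic flux, had 4.88, 5.19 and 5.52 FPKM in shHMGB2 libraries and 4.7, 5.59 and 5.31 FPKM in mock libraries, and the 95% interval of its log2 fold change was -0.20 to 0.20. FDXR, the ferredoxin reductase of mitochondria, had 17.3 ± 0.485 FPKM in shHMGB2 and 17.2 ± 2.13 FPKM in mock libraries (SD, n = 3 each), with an interval of -0.19 to 0.22. TP53I3, a quinone oxidoreductase, had 8.05 ± 0.86 FPKM in shHMGB2 and 7.16 ± 0.619 FPKM in mock libraries (SD, n = 3 each; limma adjusted p = 0.345). The sestrins SESN1 and SESN2, which restrain mTORC1, had log2 fold changes of 0.15 and -0.05 (limma adjusted p = 0.278 and 0.739). SESN2 has a second, numbered row in the table, SESN2-2, with a log2 fold change of -0.08, and the authors' counting may have split reads between the rows.

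The secreted and membrane members included GDF15 and SERPINB5, with lower values after knockdown that missed the threshold. Of 3 members 0 passed in limma, 2 had an unadjusted p under 0.05, where 27.9% of all genes tested did, and those 2 were lower in the authors' deposited table. GDF15, a stress-induced cytokine, had 17.13, 14.94 and 17.51 FPKM in shHMGB2 libraries, against 21.35, 29.85 and 20.9 FPKM in mock libraries (log2 fold change -0.50, 95% interval -0.82 to -0.18, limma adjusted p = 0.0721). Mock replicate 2 was far above the other mock libraries. SERPINB5, the serpin maspin of squamous and glandular epithelium, had 39.5, 45.62 and 45.35 FPKM in shHMGB2 libraries, against 50.15, 58.09 and 61.18 FPKM in mock libraries (log2 fold change -0.37, 95% interval -0.58 to -0.15, limma adjusted p = 0.0578). Without mock replicate 1 SERPINB5 passed (limma adjusted p = 0.0289). Of the 3 members, 1 was called lower at a mean of at least 5 FPKM and under median-of-ratios scaling. The same count held with a replicate block and with numbered copies summed. With library weights 2 were called lower, where 1758 of the 13409 genes tested were. NINJ1, a membrane protein that ruptures dying cells, had 26.5 ± 2.26 FPKM in shHMGB2 and 24.5 ± 2.76 FPKM in mock libraries (SD, n = 3 each; limma adjusted p = 0.474).

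Called members were found at low and high levels. Those that fell ran from PLK3, near the 20.4th percentile of mean FPKM among genes tested, to SFN, and the 2 that rose lay at the 54th percentile, DRAM1, and the 92.4th, CCNG1. The median mean FPKM was 12.5 over tested members and 10.3 over all genes tested. In the authors' deposited table, made with a test that the sources used here do not name, 14 of the 32 tested members were under an adjusted p of 0.05, where 15.1% of all genes tested here were. By direction 12 members were lower and 2 higher, where 1238 and 786 of the 13409 genes tested here were. The 14 members included all 11 called by limma, with GDF15, SERPINB5 and BAX added. PLK3 was the single member with the table's own mark for a change, at a log2 fold change of -1.28 in the authors' deposited table.

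**Figure D4:**
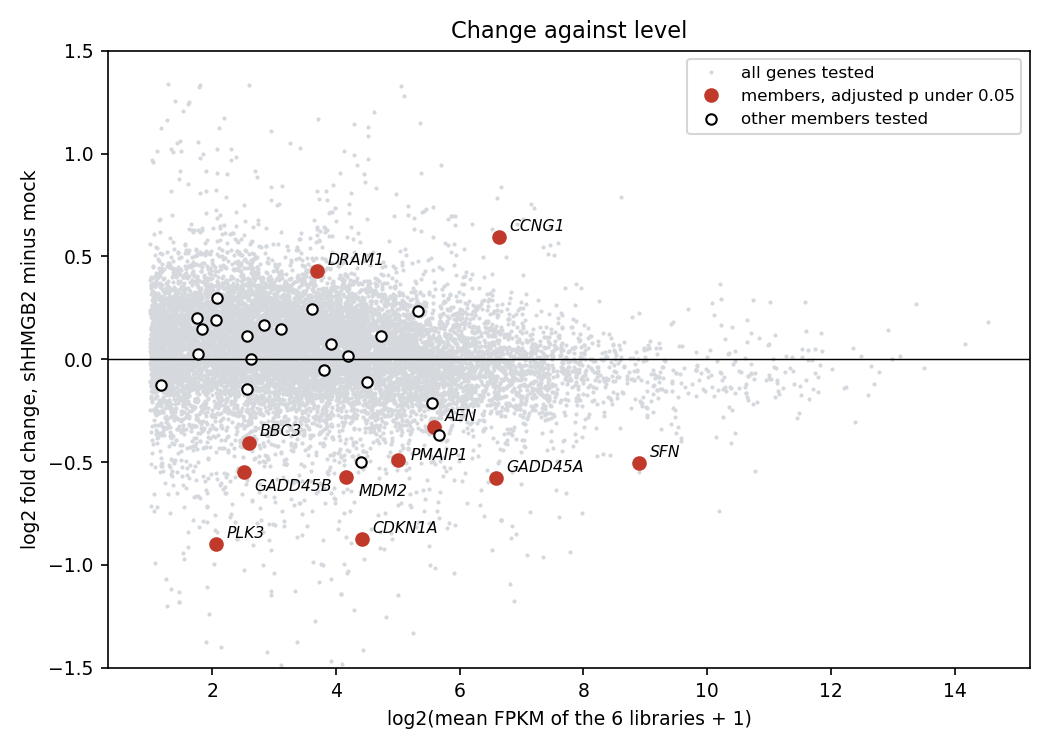
The log2 fold change (shHMGB2 minus mock) against log2 of the mean FPKM of the 6 libraries plus 1, with all genes tested in grey, members past the threshold in red and other tested members as open points; 34 grey genes lie outside the vertical range. The named members that fell run from PLK3 at low level to SFN at high level and lie below the bulk of the grey points at their level, AEN least so.

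Genes upstream of these targets were read from a list of 33 symbols for the p53 family and its regulators. Of these, 30 were tested, 4 rose (13.3%) and 0 fell in limma, where 3.3% of all genes tested rose and 3.45% fell. Log2 fold changes of the 30 had a median of 0.12, against 0.04 for all genes tested. Of the 30, 22 lay above 0 and 8 below, where 57.0% of all genes tested were above 0. TP73, which encodes the p53 relative p73, had 2.62, 2.39 and 2.19 FPKM in shHMGB2 libraries, against 1.67, 1.36 and 1.42 FPKM in mock libraries (log2 fold change 0.45, limma adjusted p = 0.0356). RCHY1, a ubiquitin ligase of p53 also called PIRH2, and TP53BP1, a DNA break adaptor, had log2 fold changes of 0.48 and 0.34 (limma adjusted p = 0.0147 and 0.0268). These calls depended on the processing: 0 of the 4 passed when mock replicate 2, shHMGB2 replicate 2 or shHMGB2 replicate 3 was left out, and the list held 1 call under upper-quartile scaling. Over all genes tested, those fits with a library left out made 290 to 327 calls and upper-quartile scaling 571, against 905 in the main fit. TP63, the p53 relative that marks basal squamous cells, had 155.35, 151.87 and 161.51 FPKM in shHMGB2 libraries and 149.65, 187.2 and 182.85 FPKM in mock libraries, which overlapped (limma adjusted p = 0.342), and it passed as lower without mock replicate 1 (adjusted p = 0.0445).

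Further genes described as p53 targets were divided. Of 63 listed genes outside the 33 members, 54 were tested, of which 5 fell, 4 rose and 45 did not pass in limma. That is 16.7% called, 9.26% lower and 7.41% higher, where 6.75%, 3.45% and 3.3% of all genes tested were. Log2 fold changes of the 54 had a median of 0.02, against 0.04 for all genes tested. LIF, a cytokine, TGFA, an EGFR ligand, IER5, an immediate early gene, EPHA2, a receptor kinase, and FHL2, a LIM domain cofactor, fell by 0.93, 0.70, 0.56, 0.44 and 0.42 on the log2 scale (limma adjusted p from 0.000807 to 0.0146). LIF had 4.38, 4.23 and 4.44 FPKM in shHMGB2 libraries, against 8.87, 9.82 and 8.84 FPKM in mock libraries, and its groups were far apart. TRIM22, an antiviral ubiquitin ligase that interferon also induces, FAS, a death receptor, and FAM210B, a mitochondrial protein, were among the 4 that rose, with log2 fold changes of 0.90, 0.54 and 0.30 (limma adjusted p from 0.000801 to 0.0383). TRIM22 had 52.77, 51.2 and 54.85 FPKM in shHMGB2 libraries, against 26.06, 29.14 and 28.29 FPKM in mock libraries. Leaving out mock replicate 2, shHMGB2 replicate 1 or shHMGB2 replicate 2 left 3 falls. In those fits 193 to 209 of all genes tested fell, against 463 in the main fit. Leaving out mock replicate 2, shHMGB2 replicate 2 or shHMGB2 replicate 3 left 1 rise, and leaving out replicate 1 of either group left 2. Of all genes tested, 97 to 123 rose where 1 rise was left, against 442 in the main fit. Without mock replicate 1, 358 rose, and without shHMGB2 replicate 1, 111 rose. LIF, TGFA, IER5 and TRIM22 passed with each library left out, and FAM210B passed with none of the 6 (limma adjusted p from 0.0529 to 0.138).

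Genes that p21 is known to lower by way of the DREAM repressor complex, among them mitotic cyclins and kinases, were read beside CDKN1A. RNA levels do not show p21 protein or the activity of the complex, and a link between these genes and CDKN1A was not tested. Of 38 listed genes, all tested, 0 passed in limma in either direction, 12 had an unadjusted p under 0.05 (27.9% of all genes tested did), with 3 higher and 3 lower by the authors' deposited table. Without overlap between groups, 12 of the 38 were higher and 1 was lower, where 2896 and 1882 of the 13409 genes tested were. CHEK1 is in this list and in that of p53 regulators. The median log2 fold change was 0.08, with 27 above 0 and 11 below where 57.0% of all genes tested were above 0, and the smallest adjusted p in limma was 0.0592. With library weights 14 were higher and 2 lower, where 2436 and 1758 of the 13409 genes tested were. Without mock replicate 3, 3 were higher, where 449 of 13436 genes tested were.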

How the data were processed

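RNA was sequenced in 6 KYSE450 libraries, 3 shHMGB2 and 3 mock. The submitters' processing notes list hg38, RSEM 1.2.12 and Bowtie2 2.2.5 without role or order. The authors deposited 1 table of FPKM per library, per the file headers. It also holds the authors' normalized group values, which behave as a signal pooled over libraries, a log2 fold change that equals the log2 ratio of those deposited group values, and the authors' p-value and adjusted p-value. It has no read counts, so a count test was not run.

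The 13409 genes averaging 1 FPKM or more were fitted as log2(FPKM + 1) by limma 3.58.1 (R 4.3.3) on group alone, with a mean-variance trend and 2-sided Benjamini-Hochberg adjustment. The fit was tested on simulated data with normal noise drawn independently for each gene and library. The genes to be changed were drawn from those with a mock mean of at least 5 FPKM. Recovery at lower levels, such as that of PLK3, was thus not tested. Of 100 genes changed by a log2 fold change of 1 in size, 89 were called in the right direction. Of 100 changed by 0.5, 57 were, and 5 unchanged genes were called. Changes of the smaller size can thus be missed. All 33 members are named, as are HMGB2, TP63, TP73 and up to 8 called genes of each further list. The members and lists were chosen with earlier results of these data known, so their counts are descriptions and no gene set test was made. Same-numbered libraries did not deviate together (r -0.0116, -0.0377 and -0.0959), so replicate numbers were not used as pairs in the main fit. A shared batch was not tested. Gene positions and promoters are from RefSeq on GRCh38.p14. Figures were drawn with matplotlib 3.10.9. Alternatives covered the pseudocount, the filter, scaling, the variance model, library weights, a replicate block, each library left out and, chosen after seeing the data, numbered copies of a gene summed. A result of 1 listed gene is not reported here.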

Additional observations from a re-analysis of the deposited data

How the results depend on the processing

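Across 15 alternatives, 406 of 470 values for tested members kept their direction and their side of the threshold, 38 lost the call, 11 gained it and 15 changed sign, all in 5 members that did not pass in any of these fits. With library weights the log2 fold changes of PLK2 and TIGAR were 0.0699 and -0.0673. Under median-of-ratios scaling those of CDIP1, TIGAR and FDXR were -0.0163, -0.0488 and -0.0406, and under upper-quartile scaling that of TIGAR was -0.00864. With a library left out, they ranged over both signs, from -0.0756 to 0.109 for CDIP1, -0.110 to 0.0307 for SESN2, -0.0588 to 0.0459 for TIGAR and -0.0404 to 0.110 for FDXR. The count of all genes called, 905, was 412 with no filter on low values, where more genes were tested, 571 under upper-quartile scaling, 4194 with library weights and 372 with a replicate block, and 290 to 873 with a library left out. Members that fell, 9, numbered 4 with no filter and 3 to 9 with a library left out. They numbered 10 under median-of-ratios scaling and with numbered copies summed, and 11 with library weights. Members that rose, 2, numbered 6 with library weights, which added XPC, DDB2, POLH and SESN1, 1 with a replicate block and 1 to 2 with a library left out. The replicate block left 7 members lower and ended the calls of GADD45B, BBC3, AEN and DRAM1 (limma adjusted p = 0.0936, 0.0786, 0.0516 and 0.0585). SERPINB5 passed with the block (limma adjusted p = 0.0423). By their labels, same-numbered libraries share only a number. The members' median of -0.03 was -0.0825 at a mean of at least 5 FPKM and -0.0789 under median-of-ratios scaling, which moved the median of all genes by -0.05, and -0.0791 to 0.00599 with a library left out. All genes called split into 442 higher and 463 lower, against 214 and 357 under upper-quartile scaling and 309 and 636 under median-of-ratios scaling, 138 and 234 with the block, and 167 and 245 with no filter. Other than where the construction shows it, the cause was not tested. Read depth is not in the table, and genes near 1 FPKM, such as ZMAT3, rest on few fragments.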
